A study of Homo sapiens with 4 samples.

Results

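The 44 genes described here act in mitosis and chromosome segregation. They were the genes named in a list of mitotic cyclins, kinases, checkpoint proteins, kinetochore and spindle components, condensin subunits and the proliferation antigen MKI67, and all 44 were found by symbol among the 16370 genes listed in the data. Gene expression had been sequenced in 4 human liver cancer cultures, with 1 library per cell line. Hep3B and Huh7 are established hepatoma lines and formed the hepatocellular carcinoma (HCC) group. Hep3B-C and Huh7-C are the stem-like cultures grown from them and formed the hepatic cancer stem cell (HCSC) group. The labels gave no drug, genotype change or time point for any culture, and each stem-like culture was derived from its parental line, so it stands for 1 line and not for a population of tumors.

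Mitosis is driven by cyclin B and its kinase CDK1, which together start chromosome condensation and spindle assembly. The spindle checkpoint then holds back the anaphase-promoting complex, a ubiquitin ligase, until each kinetochore is attached to microtubules, and separase cuts cohesin once the hold is released. Most of these genes are transcribed in G2 phase under B-MYB, FOXM1 and the MuvB complex and are shut off in resting cells, so that in adult liver, where hepatocytes rarely divide, their transcripts are scarce, while in dividing cell lines they are abundant. In a bulk library, fewer cells in G2 phase and mitosis cannot be told apart from less RNA per such cell.

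Total gene counts ranged from 2896418 in Hep3B to 4641927 in Hep3B-C, and every one of the 44 genes had at least 27 counts in each library. Counts are given as CPM, that is, divided by the library's total gene count and scaled to 1000000. A gene with 3 counts, taken as the smallest level a library could show, stood at between 0.646 and 1.04 CPM. Summed CPM of 9 liver genes ranged from 26757 to 62657, and 12 markers of other cell types and of stem cell surfaces summed to between 192.2 and 990.9 CPM. Of these, COL1A1, COL1A2, THY1 and VWF reached at most 3.97 CPM and PTPRC, LYVE1, KRT5 and ACTA2 were not listed, while CD68 ranged from 99.8 to 270.1 CPM and PECAM1 from 2.76 to 21.5 CPM, and the rest came from EPCAM and PROM1. Among the liver genes, the fetal protein AFP had only 5.73 CPM in Huh7 and 2.77 CPM in Huh7-C, against 5584 and 905 CPM in Hep3B and Hep3B-C. Hep3B is known to lack RB. In Hep3B and Hep3B-C, RB1 had 4 and 4 counts, against 83 and 125 in Huh7 and Huh7-C. The RB1 counts went with the Hep3B name on the labels, while the low AFP of the Huh7 pair went against the usual description of Huh7. ALB was also low there, at 106.2 and 266.7 CPM in Huh7 and Huh7-C, against 19540 and 18470 CPM in Hep3B and Hep3B-C. APOA1, FGB, HNF4A and SERPINA1 were higher in Huh7 than in Hep3B. In Huh7 SERPINA1 alone held 40520 of the summed 50126 CPM of the liver genes.

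The promoters of the mitotic genes were examined first, because a pair of short sequences is known to be common in them. The CCAAT box binds the factor NF-Y, and the cell cycle homology region (CHR, with the letters TTTGAA or TTCGAA) binds MuvB. Promoter windows of 300 bases, 250 before and 50 after the first RefSeq start (GRCh38.p14), were found for 37 of the 44 genes. No entry was used for AURKA, BIRC5, BUB3, FOXM1, TPX2, TTK and UBE2C. On either strand, CCAAT was present in 27 of 37 windows (73%) and a CHR in 26 of 37 (70.3%), against 35.7% and 16.6% of all 27305 genes in the table. Among 10184 genes with at least 20 counts over the 4 libraries these shares were 36.8% and 11.1%. Both motifs stood together in 20 of 37 windows (54.1%), against 4.68% of those expressed genes. At least 2 CCAAT boxes were present in 17 of 37 (45.9% against 13.7%). The GC box GGGCGGG was about as common in the mitotic genes (51.4%) as in expressed genes (54.2%), and TTTGGCGC, TTTCCCGC or TTTGGCGG, letters bound by E2F factors, were found in 4 windows (10.8% against 4.74%). These are matches of letters and do not show binding, and motifs may overlap, as TTTGAA and ATTGG do in MKI67.

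The 150 bases just before the start are shown, 5′ to 3′ on the gene's strand, for CDC20, PLK1, CCNB2, CENPF, ASPM and MKI67. CDC20 and PLK1 were called up in Hep3B-C, and CCNB2 was called in neither stem-like line. CENPF, ASPM and MKI67 moved in opposite directions in the stem-like lines. Capitals mark the CCAAT box and the CHR, read on either strand.
CDC20, chr1:43358831-43358980, plus strand: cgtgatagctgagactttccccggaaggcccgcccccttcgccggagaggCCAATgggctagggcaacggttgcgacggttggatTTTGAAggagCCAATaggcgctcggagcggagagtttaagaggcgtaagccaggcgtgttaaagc
PLK1, chr16:23678739-23678888, plus strand: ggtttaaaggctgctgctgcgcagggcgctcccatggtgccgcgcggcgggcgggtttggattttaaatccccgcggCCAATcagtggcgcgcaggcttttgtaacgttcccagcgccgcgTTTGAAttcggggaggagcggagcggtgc
CCNB2, chr15:59104996-59105145, plus strand: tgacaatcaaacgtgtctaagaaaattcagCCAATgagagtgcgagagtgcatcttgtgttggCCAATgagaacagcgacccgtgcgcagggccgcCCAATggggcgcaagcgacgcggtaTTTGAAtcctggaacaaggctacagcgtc
CENPF, chr1:214603045-214603194, plus strand: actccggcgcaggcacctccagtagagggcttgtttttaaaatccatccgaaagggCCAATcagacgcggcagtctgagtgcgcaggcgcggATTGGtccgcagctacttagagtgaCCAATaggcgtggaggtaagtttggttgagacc
ASPM, chr1:197146670-197146819, minus strand: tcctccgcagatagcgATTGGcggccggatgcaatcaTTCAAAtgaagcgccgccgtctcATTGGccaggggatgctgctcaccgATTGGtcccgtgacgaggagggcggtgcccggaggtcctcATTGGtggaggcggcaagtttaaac
MKI67, chr10:128126424-128126573, minus strand: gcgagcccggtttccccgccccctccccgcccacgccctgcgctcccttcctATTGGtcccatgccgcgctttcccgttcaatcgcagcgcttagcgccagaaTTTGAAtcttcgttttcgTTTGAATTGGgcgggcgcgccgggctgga
The 3 CCAAT boxes of CCNB2 and of CENPF and the 4 of ASPM are spread over this stretch, while PLK1 holds 1 and CDC20 and MKI67 hold 2 each. In all but CENPF a CHR lies closer to the start than at least 1 CCAAT box, and CENPF has none in this stretch. Both motifs were therefore found in genes of either direction, though not in every gene. Of genes called down in Hep3B-C, 19 of 22 with a window held a CHR and 15 a CCAAT box. Of the 3 genes called up there, 2 held each motif, and of 12 genes not called, 5 held a CHR and 10 a CCAAT box.

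To ask how mitotic genes differ between HCSCs and HCC cells, each stem-like line was set against its parent, first by their share of the library. Together the 44 genes took 0.845% of counts in Hep3B (24483 counts, Wilson 95% interval 0.835% to 0.856%) and 0.463% in Hep3B-C (21469 counts, 0.456% to 0.469%). In the Huh7 pair the share went the other way, from 0.365% in Huh7 (16552 counts, 0.359% to 0.37%) to 0.572% in Huh7-C (24779 counts, 0.565% to 0.579%). The intervals cover counting error only. The median gene stood at 93.9 and 75.7 CPM in Hep3B and Hep3B-C, and at 52.8 and 78.1 CPM in the Huh7 pair. The highest of the 4 libraries was Hep3B for 28 of the 44 genes, against 42.9% of 12220 genes with at least 20 counts, and the lowest was Huh7 for 23 of them, against 21.4%. The Hep3B library thus stood at the top, and the Huh7 library at the bottom, for most mitotic genes.

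**Figure D1:**
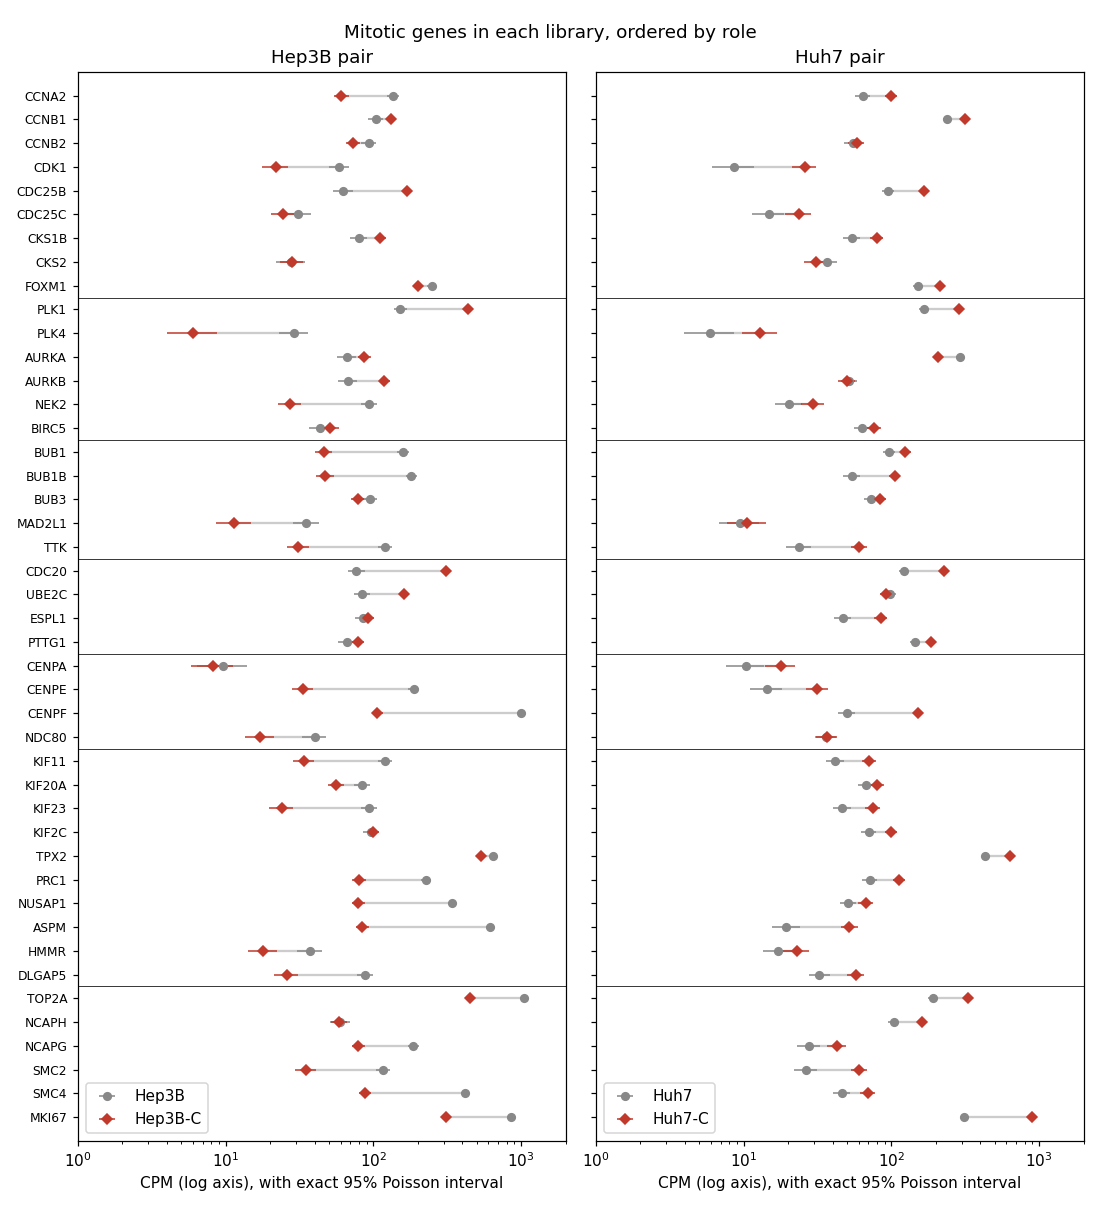
CPM of each of the 44 mitotic genes on a log axis in the Hep3B pair (left) and the Huh7 pair (right), with grey circles for the parental line, red diamonds for the stem-like line and exact 95% Poisson intervals of the single library as bars. Lines part the 7 role groups, and CENPF spans the widest distance, from 1001 CPM in Hep3B to 106.6 in Hep3B-C.

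Each gene was then tested with the Audic-Claverie test, which asks of 2 Poisson counts whether they fit equal shares of their libraries, on all genes of the pair. Calls required an FDR (Benjamini-Hochberg) no higher than 0.01 together with a log2 fold-change (HCSC/HCC, with 0.5 added to each count) of 1 or more in size. The test compares 2 libraries, not the conditions, and standard errors (SE) are those of Poisson counts. No call has a replicate check.

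In Hep3B-C, 23 of the 44 genes (52.3%) were called down and 3 (6.82%) were called up, against a background of 30.4% down and 13.2% up over all 15480 genes of the pair. Over the 11433 genes with at least 20 counts these shares were 37.5% down and 17.7% up. The median log2 fold-change of the 44 was -1.11, against -0.55 over genes with at least 20 counts. Relative to that median 20 genes lay above and 24 below. The balance depended on the library size, since TMM scaling raised the median of all genes by 0.48, and it then gave 5 mitotic genes up and 16 down, against 19.7% up and 20.2% down of all genes. CCNB2, CDC25C, FOXM1, BUB3, CENPA, TPX2 and NCAPH, all lower in Hep3B-C and not called, were higher there with TMM. In Huh7-C, 8 of the 44 (18.2%) were called up and none was called down, against 4.19% up and 4.15% down over 14807 genes. Over the 11134 genes with at least 20 counts the shares were 5.38% up and 5.25% down. The median was 0.63, against 0.06 over genes with at least 20 counts, and 40 of the 44 were higher in Huh7-C than in Huh7. With no limit on the fold, 30 mitotic genes were higher in Huh7-C at an FDR of at most 0.01, against 15.4% of all genes, those of low counts included. AURKA alone was lower at that FDR (12.2% of all genes) and at an unadjusted p under 0.05. With TMM the count stayed at 8 up and 0 down (all genes 3.73% and 4.46%), and the exact binomial test likewise called none down. When a biological coefficient of variation (BCV) of 0.4 was assumed between cultures, none of the 44 was called in either pair.

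All 8 genes called up in Huh7-C were among the 23 called down in Hep3B-C. This pattern was found in 267 of 13917 genes listed in both pairs (1.92%) and in 18.2% of the mitotic genes. The 8 were CDK1, PLK4, TTK, CENPE, CENPF, ASPM, SMC2 and MKI67. No mitotic gene was called the same way in both lines, against 0.568% of all genes up and 1.49% down in both. Of the others, 15 were called down in Hep3B-C alone, 3 were called up there alone, and 18 were called in neither. The difference between the pairs was itself tested, as the difference of the log2 fold-changes over its Poisson SE with adjustment over the 13917 genes. It was called, at the same limits, for 25 of the 44, with the fold lower in the Hep3B pair in 23 (background 26.5%) and higher in 2 (background 13.4%).

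**Figure D2:**
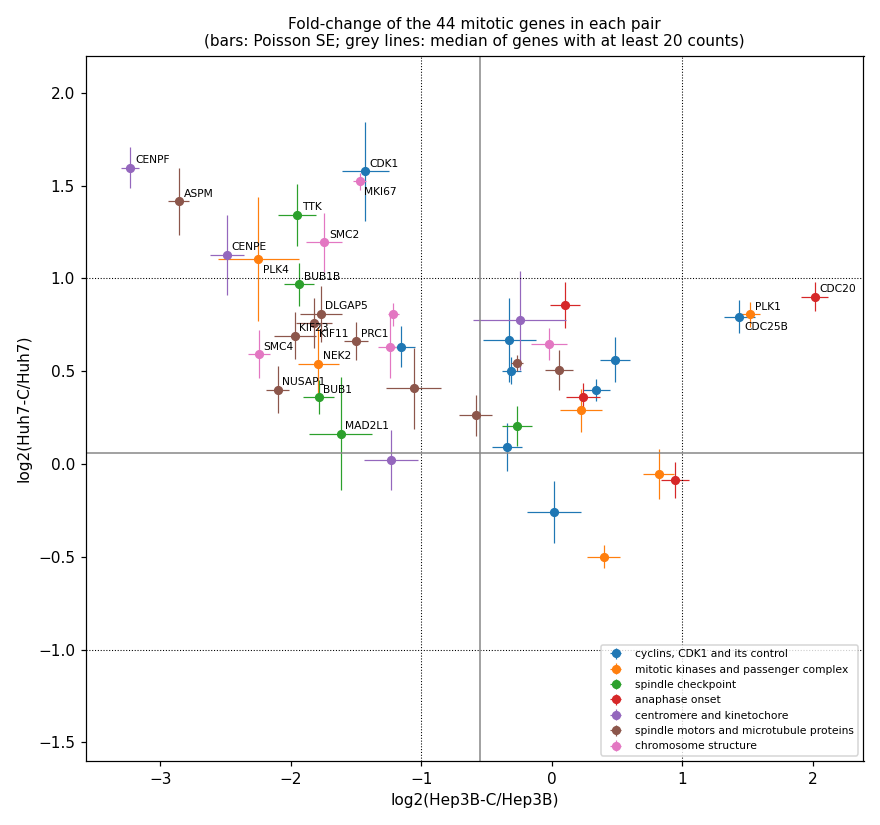
Log2 fold-change of each mitotic gene in Hep3B-C against Hep3B (x axis) and in Huh7-C against Huh7 (y axis), colored by role, with Poisson SE as bars, dotted lines at 1 and -1, and grey lines at the median of genes with at least 20 counts (-0.55 and 0.06). Most genes lie in the upper left, 31 of 44 being lower in Hep3B-C and higher in Huh7-C, and CDC20, PLK1 and CDC25B stand apart at the right.

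Cyclins, CDK1 and the proteins that switch it on had 1 of 9 genes called up and 2 called down in Hep3B-C, and 1 called up in Huh7-C. Their summed level was 840.0 CPM in Hep3B and 821.4 in Hep3B-C, and 717.6 in Huh7 and 1011 in Huh7-C. CDC25B, a phosphatase that activates CDK1 at the centrosome, had 62.5 CPM in Hep3B and 169.5 in Hep3B-C (log2 fold-change 1.44, SE 0.12, FDR 4.3e-39), and 95.7 in Huh7 and 165.9 in Huh7-C (0.79, SE 0.09). It thus reached nearly the same level in both stem-like lines, although the second change stayed under the limit on the fold. CDK1, the kinase that starts mitosis, had 170 counts in Hep3B and 101 in Hep3B-C, or 58.7 and 21.8 CPM (log2 fold-change -1.43, SE 0.18, FDR 2.8e-15). In Huh7 and Huh7-C it had 39 and 112 counts, or 8.6 and 25.8 CPM (1.58, SE 0.27, FDR 4.1e-09). The 95% counting intervals of CDK1 overlapped between the stem-like lines (17.7 to 26.4 and 21.3 to 31.1 CPM) and did not between their parents. CCNA2, the A-type cyclin of S and G2 phase, fell from 135.7 to 60.8 CPM in Hep3B-C (-1.16, SE 0.11, FDR 1.7e-24) and went from 64.1 to 99.5 CPM in Huh7-C (0.63, SE 0.11), short of a call. CCNB1, the main mitotic cyclin, was not called in either line, at 103.6 and 131.4 CPM in the Hep3B pair and 238.5 and 314.3 CPM in the Huh7 pair (0.34, SE 0.10, and 0.40, SE 0.06). Its relative CCNB2 stood at 92.9, 73.3, 54.7 and 58.2 CPM in Hep3B, Hep3B-C, Huh7 and Huh7-C, and the phosphatase CDC25C at 30.7, 24.6, 14.8 and 23.5. The small CDK-binding proteins CKS1B (79.8, 111.8, 53.8 and 79.4 CPM) and CKS2 (27.6, 28.01, 36.8 and 30.7 CPM) were not called either. FOXM1, a transcription factor that switches on G2 genes, was not called, at 248.6 and 200.3 CPM (-0.31, SE 0.07) and at 150.7 and 213.7 CPM (0.50, SE 0.07).

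The mitotic kinases held changes of either direction. PLK1, which acts at centrosomes, kinetochores and the midbody, rose from 442 to 2030 counts in Hep3B-C, or from 152.6 to 437.3 CPM (log2 fold-change 1.52, SE 0.08, FDR 2.2e-107). In the Huh7 pair it had 165.3 and 289.4 CPM (0.81, SE 0.07, FDR 2.6e-33). Of the 44 genes it was the most abundant per length in Hep3B-C, at 201.6 RPKM (CPM per kilobase of gene length). PLK4, the kinase that starts centriole duplication, was the least abundant per length in Hep3B-C, Huh7 and Huh7-C, at 1.58, 1.56 and 3.39 RPKM. Its counts were 84 in Hep3B and 28 in Hep3B-C (-2.25, SE 0.31, FDR 1.7e-14), and 27 in Huh7 and 56 in Huh7-C (1.11, SE 0.34, FDR 0.0038). NEK2, a centrosomal kinase, fell from 93.9 to 27.1 CPM in Hep3B-C (-1.79, SE 0.16, FDR 1.3e-32) and stood at 20.3 and 29.5 CPM in the Huh7 pair (0.54, SE 0.20, FDR 0.022). The Aurora kinases behaved unlike PLK4 and NEK2. AURKA, the spindle pole kinase, had 65.9 and 87.0 CPM in the Hep3B pair and 291.1 and 205.8 CPM in the Huh7 pair (0.40, SE 0.13, and -0.50, SE 0.06). AURKB, the kinase of the chromosomal passenger complex, had 67.0 and 118.3 CPM (0.82, SE 0.12) and 51.8 and 49.8 CPM (-0.06, SE 0.14). Its partner BIRC5 (survivin) stood at 43.9, 51.3, 62.8 and 76.8 CPM in Hep3B, Hep3B-C, Huh7 and Huh7-C. None of these 3 was called, and AURKA and AURKB were among the 4 of the 44 genes that were lower in Huh7-C than in Huh7.

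Spindle checkpoint genes fell together in Hep3B-C, where 4 of 5 were called down. Their summed level went from 589.7 to 214.1 CPM there and from 256.1 to 383.7 CPM in the Huh7 pair. TTK (MPS1), the kinase at the head of the checkpoint, fell from 348 to 144 counts in Hep3B-C, or from 120.1 to 31.0 CPM (log2 fold-change -1.95, SE 0.14, FDR 1.3e-46). The count in the Huh7 pair rose from 108 to 262 counts, or from 23.8 to 60.5 CPM (1.34, SE 0.17, FDR 3.1e-16). BUB1B (BUBR1), a subunit of the complex that inhibits CDC20, fell from 180.9 to 47.2 CPM in Hep3B-C (-1.94, SE 0.12, FDR 6.0e-69). At 53.8 and 105.2 CPM in the Huh7 pair it came close to a call (0.97, SE 0.11). The kinase BUB1 fell from 159.2 to 46.1 CPM in Hep3B-C (-1.79, SE 0.12, FDR 2.4e-54), with 96.5 and 123.9 CPM in the Huh7 pair (0.36, SE 0.09). MAD2L1, the protein that locks CDC20, fell from 102 to 53 counts in Hep3B-C (-1.62, SE 0.24, FDR 2.0e-11) and had 43 and 46 counts in Huh7 and Huh7-C (0.16, SE 0.30). BUB3, which holds BUB1 and BUB1B at the kinetochore and acts outside mitosis as well, was the exception at 94.3, 78.4, 72.5 and 83.5 CPM in Hep3B, Hep3B-C, Huh7 and Huh7-C.

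Genes of anaphase onset, which act once the checkpoint is released, had no call down in either pair. All 4 were higher in Hep3B-C than in Hep3B, 1 of them past the limits, and their summed level went from 312.5 to 641.3 CPM. In the Huh7 pair 3 of 4 were higher in Huh7-C and none was called, with summed levels of 410.8 and 589.3 CPM. CDC20, the activator of the anaphase-promoting complex, had the largest rise of the 44 genes, from 222 counts in Hep3B to 1439 in Hep3B-C, or from 76.7 to 310.0 CPM (log2 fold-change 2.01, SE 0.10, FDR 7.0e-112). In the Huh7 pair it stood at 121.7 and 227.3 CPM (0.90, SE 0.08, FDR 1.4e-31). UBE2C, the ubiquitin-conjugating enzyme of the complex, had 83.9 and 161.4 CPM in the Hep3B pair (0.94, SE 0.11) and 98.1 and 92.3 CPM in the Huh7 pair (-0.09, SE 0.10). CDC20 and UBE2C were the 2 genes whose fold was called higher in the Hep3B pair than in the Huh7 pair, by 1.11 (SE 0.13, FDR 5.1e-17) and 1.03 (SE 0.15, FDR 8.0e-12). ESPL1 (separase), which cuts cohesin, had 85.6 and 91.8 CPM in the Hep3B pair and 46.7 and 84.7 CPM in the Huh7 pair (0.10, SE 0.12, and 0.86, SE 0.12). Its inhibitor PTTG1 (securin) stood at 66.3, 78.2, 144.4 and 185.1 CPM in Hep3B, Hep3B-C, Huh7 and Huh7-C, and was the most abundant of the 44 per length in Huh7 and Huh7-C, at 202.7 and 259.9 RPKM. PTTG1 has near-identical copies in the genome, so the assignment of its reads is uncertain.

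Centromere and kinetochore genes showed the widest shifts. Their summed level was 1238 and 165.2 CPM in Hep3B and Hep3B-C, and 110.6 and 237.0 CPM in the Huh7 pair. CENPF, a large protein of the outer kinetochore, held most of that level in Hep3B. It fell from 2899 counts in Hep3B to 495 in Hep3B-C, or from 1001 to 106.6 CPM (log2 fold-change -3.23, SE 0.07). Its count in the Huh7 pair rose from 227 to 656 counts, or from 50.03 to 151.4 CPM (1.60, SE 0.11, FDR 1.4e-51). The difference between the pairs, -4.82 on the log2 scale (SE 0.13), was the largest in size among the mitotic genes. CENPE, a kinesin that carries chromosomes to the spindle equator, fell from 187.8 to 33.4 CPM in Hep3B-C (-2.49, SE 0.13, FDR 1.2e-98) and rose from 14.3 to 31.4 CPM in Huh7-C (1.13, SE 0.22, FDR 8.5e-07). For CENPE and CENPF the Hep3B library was far above the other three, which lay within a narrower range. NDC80, the microtubule anchor of the kinetochore, fell from 40.1 to 17.0 CPM in Hep3B-C (-1.23, SE 0.21, FDR 8.4e-09) and was level in the Huh7 pair at 35.9 and 36.5 CPM (0.02, SE 0.16). CENPA, the histone that marks centromeres, had the lowest counts of the group at 28, 38, 47 and 77 in Hep3B, Hep3B-C, Huh7 and Huh7-C. It was not called in either pair (-0.25, SE 0.36, and 0.77, SE 0.27, FDR 0.56 and 0.014).

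**Figure D3:**
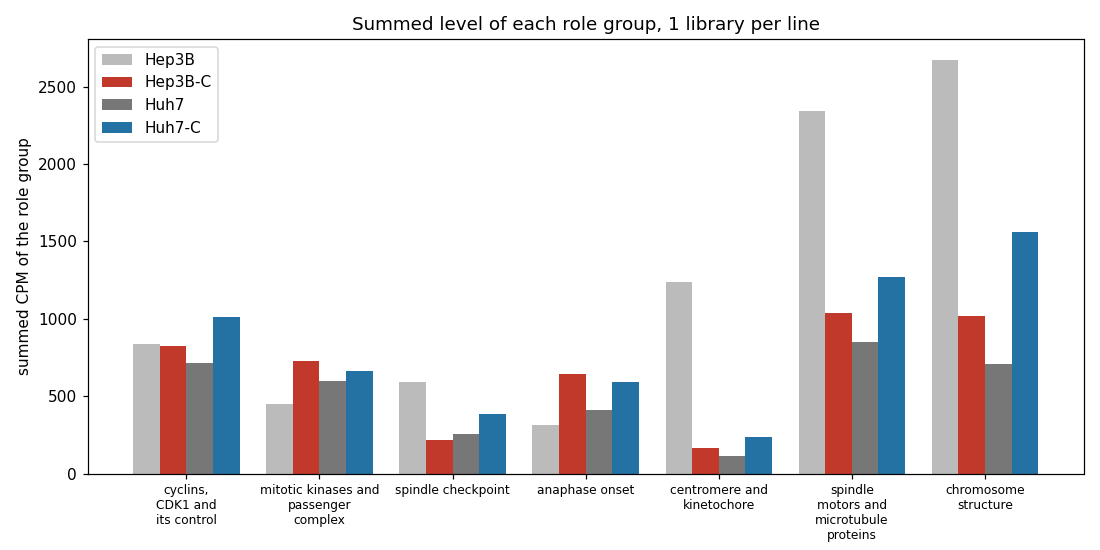
Summed CPM of the genes of each of the 7 role groups, with 1 bar per library and no error bars because each line was a single library. Hep3B holds the highest bar for the checkpoint, kinetochore, spindle and chromosome groups, reaching 2676 CPM in the last, and the lowest for kinases and anaphase genes.

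Spindle motors and microtubule proteins followed the kinetochore genes, with 7 of 10 called down in Hep3B-C and 1 of 10 called up in Huh7-C. All 10 were higher in Huh7-C than in Huh7. ASPM, which focuses spindle poles, fell from 612.5 to 84.5 CPM in Hep3B-C (log2 fold-change -2.86, SE 0.08). The Huh7 pair had a rise from 88 to 225 counts, or from 19.4 to 51.9 CPM (1.42, SE 0.18, FDR 3.5e-15). NUSAP1, a microtubule bundling protein, fell from 339.0 to 79.1 CPM in Hep3B-C (-2.10, SE 0.09, FDR 7.2e-143), with 50.9 and 67.2 CPM in the Huh7 pair (0.40, SE 0.13). The central spindle kinesin KIF23 fell from 93.9 to 23.9 CPM in Hep3B-C (-1.97, SE 0.16, FDR 3.4e-37), and KIF11, the kinesin that pushes spindle poles apart, from 119.8 to 33.8 CPM (-1.82, SE 0.14, FDR 2.3e-42). Both were higher in Huh7-C than in Huh7 without a call (0.69, SE 0.13, and 0.76, SE 0.13). PRC1, which bundles the microtubules of the central spindle, fell from 226.8 to 80.1 CPM in Hep3B-C, with 71.2 and 112.6 CPM in the Huh7 pair. DLGAP5 (-1.77) and HMMR (-1.06), which stabilize spindle microtubules, were also called down in Hep3B-C and had log2 fold-changes of 0.81 and 0.41 in Huh7-C. TPX2, the activator of AURKA, had the highest level per length of the group in each library (118.4 to 176.4 RPKM). It stood at 646.0, 537.3, 433.5 and 631.1 CPM in Hep3B, Hep3B-C, Huh7 and Huh7-C, and was not called (-0.27, SE 0.04, and 0.54, SE 0.04). Of the other kinesins, which were not called, KIF20A stood at 84.2 and 56.2 CPM and KIF2C at 96.0 and 99.7 CPM in the Hep3B pair. In the Huh7 pair KIF20A had 67.0 and 80.3 CPM and KIF2C had 70.3 and 99.9 CPM.

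Genes of chromosome structure held the most counts of the 7 groups in Hep3B and Huh7-C. Their summed level fell from 2676 to 1017 CPM in the Hep3B pair and went from 705.5 to 1564 CPM in the Huh7 pair. MKI67 (Ki-67), which coats mitotic chromosomes and marks dividing cells, fell from 2480 to 1433 counts in Hep3B-C, or from 856.2 to 308.7 CPM (log2 fold-change -1.47, SE 0.05, FDR 5.1e-216). It rose from 1415 to 3885 counts in Huh7-C, or from 311.8 to 896.4 CPM (1.52, SE 0.05, FDR 1.2e-284). Hep3B and Huh7-C thus held a like level of MKI67, and Hep3B-C and Huh7 held another. TOP2A, which untangles sister chromatids, fell from 1041 to 448.1 CPM in Hep3B-C (-1.22, SE 0.04, FDR 1.8e-194) and went from 190.0 to 332.5 CPM in Huh7-C (0.81, SE 0.06). Among condensin subunits, SMC4 fell from 416.0 to 87.9 CPM in Hep3B-C (-2.24, SE 0.08, FDR 1.0e-190) and its partner SMC2 from 117.0 to 34.9 CPM (-1.74, SE 0.14, FDR 5.8e-39). SMC2 rose in Huh7-C, from 26.5 to 60.7 CPM (1.20, SE 0.16, FDR 1.0e-13), and SMC4 stood at 46.1 and 69.5 CPM in that pair (0.59, SE 0.13). NCAPG, a further subunit of the same ring, fell from 186.8 to 79.3 CPM in Hep3B-C (-1.24, SE 0.10, FDR 8.7e-37). NCAPH, which closes the ring, did not move with its partners, at 59.4 and 58.6 CPM in the Hep3B pair (-0.02, SE 0.14) and 103.6 and 162.2 CPM in the Huh7 pair (0.65, SE 0.09). The subunits of 1 complex therefore had unequal changes in Hep3B-C.

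Levels were also set side by side between the parental lines and between the stem-like lines, without a test. In Hep3B, 33 of 44 mitotic genes were higher than in Huh7, 22 of them over 2-fold, against 33.5% of all genes, and 3 were over 2-fold higher in Huh7, against 22.4% of all genes. The median log2 ratio was 0.95, against 0.25 over all genes, and ranged from -2.14 for AURKA to 4.97 for ASPM. Between Hep3B-C and Huh7-C the median log2 ratio was -0.24, against -0.23 over all genes. There AURKB alone was over 2-fold higher in Hep3B-C, against 15.6% of all genes, and 13 genes were over 2-fold higher in Huh7-C, against 24.2%, with KIF23 at the far end (-1.64). The share of mitotic genes more than 2-fold apart in either direction was 56.8% between the parents and 31.8% between the stem-like lines, against 55.9% and 39.8% of all genes.

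Base composition and gene length moved with these folds. In Hep3B-C the log2 fold-change of the 44 genes rose with the GC content of the transcript (Pearson 0.80, Spearman 0.76 across genes, which are not independent replicates) and fell with log2 gene length (-0.55 and -0.55). All genes with at least 20 counts showed the same relations, with Spearman coefficients of 0.63 and -0.43. The 23 genes called down had a GC content between 35.3% and 48.3%, while CDC20, PLK1 and CDC25B lay between 57.0% and 59.3%. All 13 mitotic genes below 40% GC were called down, as were 77.4% of 1649 genes of that range. Of those between 40% and 45% GC, 8 of 11 (72.7%) were called down, against 60.6% of all. Between 45% and 50% GC, 2 of 11 (18.2%) were called down, against 41.0% of all, and of the 9 mitotic genes at 50% GC or above 3 (33.3%) were called up, against 34.5% of all. The split of mitotic genes in Hep3B-C thus ran along the GC content, as it did for other genes. For Huh7-C, GC content went with the fold only weakly (Spearman -0.26 for the mitotic genes, -0.06 for all), and longer genes were higher (0.58 and 0.32). The 8 genes called up there had a median length of 7330 bases, against 2781 bases for the other 36. Whether the libraries or the cells produced these relations was not tested.

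**Figure D4:**
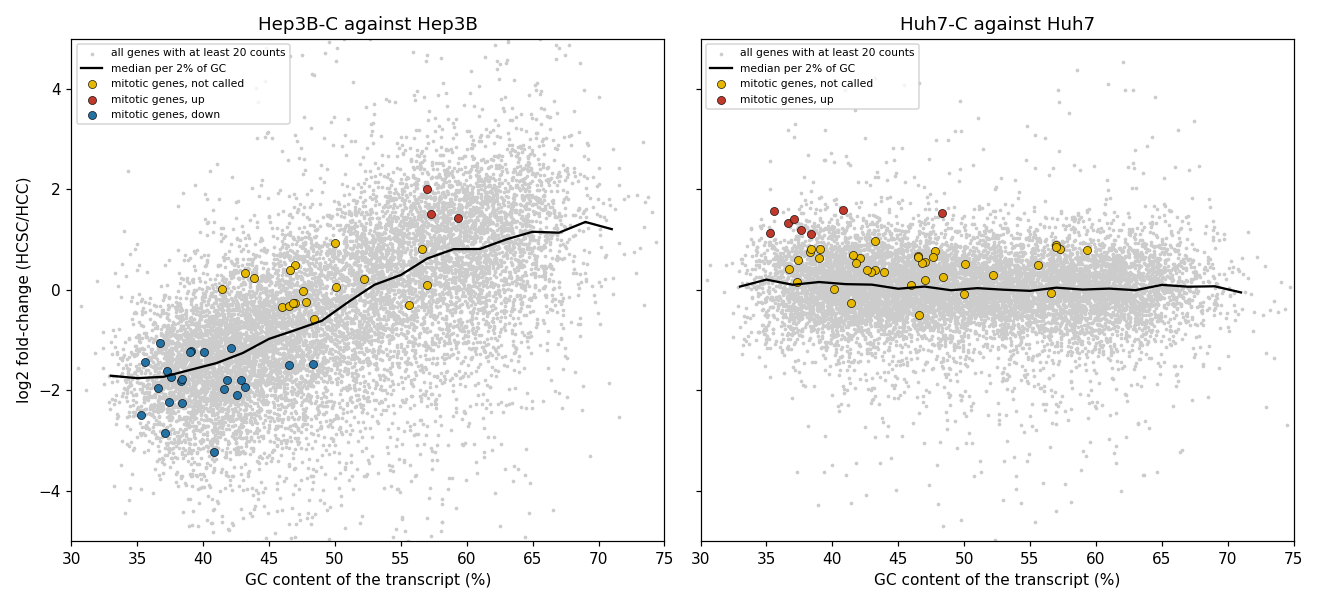
Log2 fold-change against GC content of the transcript in the Hep3B pair (left) and the Huh7 pair (right), with all genes of at least 20 counts in light grey, their median per 2% of GC as a black line (the y axis ends at 5 and -5), and mitotic genes in red (up), blue (down) or yellow (not called). The mitotic genes follow the rising line on the left, and on the right 40 of 44 lie above 0.

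Fold-changes were therefore recomputed after the trends with GC content and length over all genes had been removed, with the median left in place. In Hep3B-C the median of the 44 genes then stood at -0.44, against -0.54 over genes with at least 20 counts. No gene remained up, against 3.96% of all genes, with CDC20 at 0.55, CDC25B at 0.40 and PLK1 at 0.24. Calls down numbered 11, or 25% of the 44, close to the 25.6% of all genes. Of the 11433 genes with at least 20 counts, 3399 were called down. The mitotic genes thus held no excess of calls down under this setting. The 11 were CENPF (-1.55), NUSAP1 (-1.61), NEK2 (-1.33), MAD2L1 (-1.24), PLK4 (-1.19), BUB1B (-1.19), PRC1 (-1.18), KIF23 (-1.11), FOXM1 (-1.06), BUB1 (-1.05) and TTK (-1.01). FOXM1 had not been called before, so that 10 of the 23 kept their calls. The 4 checkpoint genes kept their calls, and no condensin, TOP2A or MKI67 call did. TOP2A changed sign, to 0.17. In Huh7-C the median stood at 0.56, with 5 genes called up against 2.9% of all. These were CDK1 (1.75), TTK (1.37), CDC20 (1.07), CENPF (1.05) and PLK4 (1.04), of which CDC20 had not been among the 8. PLK4, TTK and CENPF, 6.82% of the 44, were called in opposite directions under this setting as well. There was no share over all genes under this setting to set beside that. Removal of the length trend alone also gave 5 genes up, 4 of them among the 8, and 0 down in Huh7-C, against 2.98% and 4.07% of all genes.

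**Figure D5:**
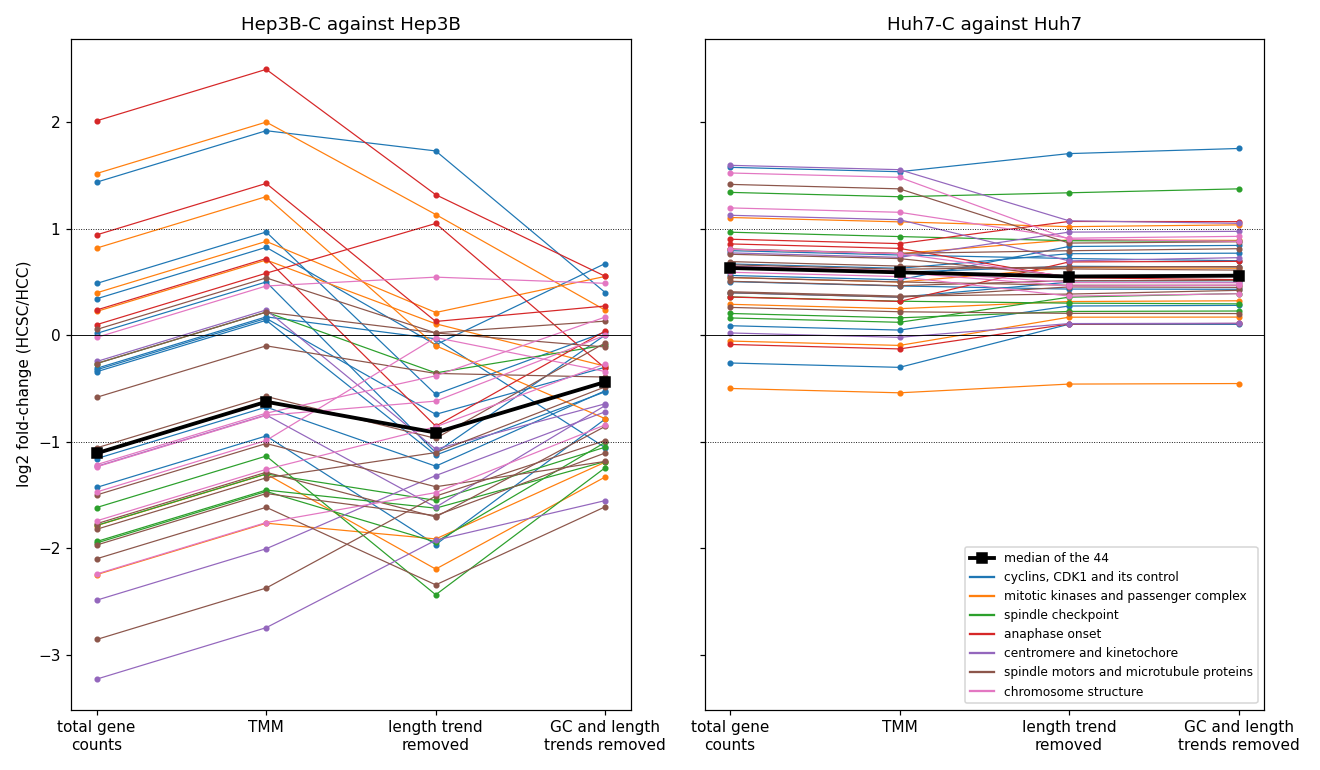
Log2 fold-change of each mitotic gene (thin lines, colored by role) and their median (black squares) in Hep3B-C (left) and Huh7-C (right) with total gene counts, TMM library sizes, the length trend removed, and the GC and length trends removed. The median in Hep3B-C goes from -1.11 to -0.63, -0.91 and -0.44 in that order and the spread shrinks at the last, while in Huh7-C it stays between 0.55 and 0.63.

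Other genes of the same pathways were taken from 10 further lists of kinetochore, cohesin, spindle, centriole and cell cycle control genes, none of them among the 44. Of 147 genes found, 68 (46.3%) were called down and 18 (12.2%) up in Hep3B-C, with a median of -0.96, and 12 (8.16%) were called up and none down in Huh7-C, with a median of 0.50. The shares over all genes were 30.4% down and 13.2% up in Hep3B-C, and 4.19% up and 4.15% down in Huh7-C. After removal of both trends, 36 of the 147 (24.5%) were down and 3 up in Hep3B-C, against 25.6% and 3.96% of all genes. In Huh7-C 11 (7.48%) were then up and none down, against 2.9% and 4.19% of all genes. In Hep3B-C cohesin and its regulators had 13 of 15 genes called down, among them the loader NIPBL (-2.40) and the acetyltransferase ESCO1 (-2.35), and centriole genes had 9 of 11, led by CEP192 (-2.68) and CENPJ (-2.64). With both trends removed each of these 2 lists had 4 genes down, and NIPBL stood at -0.65. Kinetochore genes beyond the 44 had 15 of 34 called down and 4 up, from KNTC1 (-3.11), a checkpoint protein, to CENPM (2.59), and CASC5 (KNL1), the kinetochore scaffold, was called up in Huh7-C (1.68). Spindle genes had 11 of 20 down in Hep3B-C and 4 of 20 up in Huh7-C, with the kinesin KIF14 in both counts (-2.33 and 1.63). Cytokinesis genes had 5 of 8 down in Hep3B-C and 3 of 8 up in Huh7-C, with ECT2, the activator of RhoA at the midzone, in both (-2.41 and 1.25). The anaphase-promoting complex had 4 of 15 down and 2 up in Hep3B-C, the latter UBE2S (1.88) and ANAPC2 (1.18), and none called in Huh7-C. With both trends removed UBE2S and ANAPC2 stood at -0.25 and -0.30 and were not called. Condensin subunits outside the list had 1 of 4 up in Hep3B-C, NCAPH2 (2.66). Of mitotic entry regulators 3 of 12 were down in Hep3B-C, among them the CDK1-inhibiting kinase WEE1 (-2.50), and 3 up, among them PKMYT1 (1.81). DREAM and MYB-MuvB subunits had 5 of 12 down in Hep3B-C, led by LIN9 (-2.53), and 2 up, E2F4 (1.31) and MYBL2 (1.26). With both trends removed PKMYT1, E2F4 and MYBL2 stood at 0.02, -0.05 and -0.08. G1 regulators, which act before mitosis, had 3 of 16 down in Hep3B-C, led by CDK6 (-2.22), and 5 up. Of these the CDK inhibitor CDKN1A (p21) rose from 7 to 295 counts (4.62, SE 0.53). In Hep3B-C, CENPM, KIF14 and CDK6 stood at 0.61, -0.77 and -0.39 with both trends removed. The other genes named here without a second value kept a log2 fold-change of at least 1 in size. Cohesin and the last 4 lists had no gene called in Huh7-C.

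A joint test over both lines asked whether HCSC and HCC differed by more than that difference varied between the pairs. Blocked on the parental line, edgeR's quasi-likelihood test called none of the 44 genes at an adjusted p of at most 0.05, and none had an unadjusted p under 0.05, against 1.27% of all genes higher and 1.91% lower at that p. Over all 11691 genes tested, 0.0342% were called up and 0.0428% down. The lowest edgeR p-value of a mitotic gene was that of CDC20 (0.0738 unadjusted, adjusted p = 1, log2 fold-change 1.63). CDC20 was higher in both stem-like lines. DESeq2 also called none. It gave 2 of the 44 genes (4.55%) an unadjusted p under 0.05, with no share over all genes to set beside it. The fit had 1 residual degree of freedom and a common BCV of 0.514.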

How the data were processed

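Total RNA of 4 cell lines was the material, read on a Genome Analyzer II (Illumina). After adapter and quality filtering, the authors mapped reads with NextGENe against NCBI Build 36.1 and counted them by transcript. Each deposited file gives raw counts of reads for every gene in whole numbers, without normalization, and the gene's length in bases. Annotation, strand and the handling of multiply mapped reads are not given in the sources used here.

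Groups and pairs came from the sample labels. Genes were joined by Entrez ID, and members were matched by symbol. Their choice and that of all lists were made with earlier results of these data known. Genes named beyond the 44 were at most the 2 called genes with the largest rise and the 2 with the largest fall per list and pair, of which the text gives a selection, and RB1, added after its values were seen. Audic-Claverie tests (tail doubled) and the test of the difference between pairs were run in Python 3.11.15 (scipy 1.17.1, pandas 2.3.3), with total gene counts as library sizes. The study names a Poisson-based method, the same adjustment and the same limits, and Audic-Claverie with a doubled tail was chosen here as such a test. Each group of the joint fit held 2 libraries (edgeR 4.0.16, TMM, filterByExpr, R 4.3.3), with genes listed for 1 pair taken as 0 counts in the other. Replicates came from different lines, and the pairing from the line names. GC content was that of the GENCODE 29 transcript nearest in length to the deposited gene length (98.0% and 98.2% of genes of the Hep3B and Huh7 pairs, and all 44 members). GC and length trends were lowess curves (span 0.3) fitted on genes with at least 20 counts. RPKM was computed from the counts. Promoter sequences were those of RefSeq (GRCh38.p14), unrelated to the build of the reads. The scripts were tested on simulated data. No protein sequences were at hand, so the planned search for degron motifs was not run. Alternatives were TMM and DESeq2 1.42.0 size factors, a count filter, another pseudocount, the trends, a binomial test and an assumed BCV of 0.4.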

Additional observations from a re-analysis of the deposited data

Results flagged for a closer look

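For 25 of the 44 mitotic genes the log2 fold-change differed between the 2 pairs of libraries, by the Poisson test of that difference (FDR at most 0.01 and a difference of at least 1). It was lower in the Hep3B pair for 23, against 26.5% of all genes, and higher for 2, against 13.4%. The values are the log2 fold-change of the Hep3B pair minus that of the Huh7 pair, and the test covers counting error only, so it compares libraries and not the stem-like state of the lines.

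In the group of cyclins, CDK1 and its control, the differences were those of CCNA2 (-1.79) and CDK1 (-3.00). Among mitotic kinases and passenger complex, the differences were those of PLK4 (-3.35) and NEK2 (-2.33). For the spindle checkpoint, the differences were those of BUB1 (-2.15), BUB1B (-2.90), MAD2L1 (-1.78) and TTK (-3.29). At anaphase onset, the differences were those of CDC20 (1.11) and UBE2C (1.03). For centromere and kinetochore genes, the differences were those of CENPE (-3.61), CENPF (-4.82) and NDC80 (-1.25). Among spindle motors and microtubule proteins, the differences were those of KIF11 (-2.58), KIF23 (-2.66), PRC1 (-2.16), NUSAP1 (-2.50), ASPM (-4.27), HMMR (-1.47) and DLGAP5 (-2.58). For chromosome structure, the differences were those of TOP2A (-2.02), NCAPG (-1.87), SMC2 (-2.94), SMC4 (-2.83) and MKI67 (-3.00).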

How the results depend on the processing

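With 1 library per line, no spread between cultures could be set beside any call of a pair, and counting error alone decides them. In Hep3B-C the 3 genes up became 5 with TMM, 6 with DESeq2 size factors, and 0 after removal of both trends (GC and length) or with an assumed BCV of 0.4. The 23 genes down became 15 with DESeq2 size factors, 11 with the GC and length trends removed (10 of the 23, and FOXM1) and 0 with that BCV. Folds set relative to the median of genes with at least 20 counts, an alternative chosen after seeing the data, gave 6 up and 15 down. There was no share over all genes to set beside these counts. The median of the 44 moved from -1.11 to -0.63 with TMM, -0.58 with DESeq2 size factors, -0.91 with the length trend removed and -0.44 after removal of both, where TOP2A changed sign to 0.17. In Huh7-C the 8 genes up became 5 with the length trend removed, 5 with both trends removed (each time 4 of the 8, and CDC20) and 0 with that BCV. The count of genes with a higher fold in the Hep3B pair went from 2 to 1 under either trend removal, and that gene was new. It was CDC25B with the length trend removed (1.73 against 0.72 in the Huh7 pair). With both trends removed it was AURKA (0.55 against -0.45). CDC20 and UBE2C kept this call under neither removal. With both trends removed, CDC20 had the lower fold in the Hep3B pair (0.55 against 1.07), and UBE2C had 0.27 against 0.11. Of the 23 genes with a lower fold in the Hep3B pair, some had folds less than 1 apart with both trends removed. They were TOP2A (0.17 against 0.55), NCAPG (-0.001 against 0.47), HMMR (-0.07 against 0.42) and NDC80 (-0.66 against 0.11). The others of the 23 stayed at least 1 apart under that setting. Why trend removal changes these folds and calls was not tested. Over all 15480 genes of the Hep3B pair, 2043 were called up and 4708 down. These counts became 3056 and 3134 with TMM, 3164 and 3015 with DESeq2 size factors, and 62 and 169 with a BCV of 0.4. With both trends removed they were 600 and 3877 of 15170 genes. Of 14807 genes of the Huh7 pair, 620 were called up, 441 with the length trend removed and 13 with a BCV of 0.4. With both trends removed 421 of 14536 were up.

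In the joint edgeR fit the pairing came from the line names, and no mitotic gene was called with the replicate block or without it (0 up and 0 down). Leaving out each library in turn gave 0 to 0 calls in either direction. That fit had 1 residual degree of freedom, so a count of 0 says nothing about stability.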
